A study of Homo sapiens with 15 samples.

Results

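Libraries made from LNCaP cells under a single androgen treatment were compared with each other. LNCaP cells come from a human prostate cancer, respond to androgen and make prostate-specific antigen (PSA). Of the 15 libraries of the series, 10 were labelled R1881 with DMSO, the solvent, and all 10 were used. They fall into a pair of number runs given in their labels, with 5 libraries numbered 51 to 55 (the first run) and 5 numbered 71 to 75 (the second run). By the labels the cells of all 10 libraries were starved of steroids in medium with charcoal-stripped serum, received 1 nM R1881, a synthetic androgen, and were harvested after 22 h, so the groups differ in the labels only by library number. The methods of the study give another dose of R1881, in µM, and the sizes of the R1881 and the combination group the other way round, and the labels were followed in both. The labels do not say what a run of numbers stands for (a day, a thaw, an operator), nor that the libraries came from separate cultures, although the study calls them biological replicates. The p-values therefore measure the spread between these libraries, and a run cannot be told apart from anything else that changed with it. The numbers that close the library names are given by sequencing software by order in a sample sheet. They were 54, 59, 48, 84 and 55 for libraries 51 to 55 and 64, 74, 34, 39 and 12 for libraries 71 to 75. The ranges overlapped there but the runs were not evenly mixed, as libraries 73, 74 and 75 came before all of the first run. The remaining 5 libraries, which also received darolutamide, an androgen receptor antagonist, were not used. The question was which programmes of the cell varied between replicate androgen-treated libraries.

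The cells were checked against markers. All 12 luminal prostate markers on the list, KRT8, KRT18 and HOXB13 among them, were in the table, with a summed level of 10134 to 10485 CPM in libraries 51 to 55 and 10878 to 11176 CPM in libraries 71 to 75. None of 7 leukocyte markers was in the table. Basal markers (3 of 6 in the table) summed to 3.20 to 3.35 CPM in libraries 51 to 55 and 2.42 to 3.56 CPM in libraries 71 to 75, and fibroblast markers (3 of 6) to 6.36 to 8.32 CPM in libraries 51 to 55 and 7.07 to 10.5 CPM in libraries 71 to 75. Synaptophysin was the only one of 7 neuroendocrine markers and VWF the only one of 5 endothelial markers in the table.

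Androgen bound to its receptor switches on the kallikreins KLK2 and KLK3, the latter coding for PSA, and drives LNCaP cells back into division after steroid starvation. Dividing cells raise a late set of genes for mitosis, many of them under promoters with a cell cycle homology region (CHR) next to CCAAT boxes, after an earlier set for DNA replication that E2F factors control. TXNIP, which restrains glucose uptake, follows the glucose sensors MondoA and ChREBP through the carbohydrate response element (ChoRE), RBM3 and CIRBP rise on mild cooling, HSF1 raises chaperones on heat or proteotoxic stress, and the unfolded protein response raises chaperones of the endoplasmic reticulum (ER).

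Promoters of 6 genes from these programmes are shown so that the letters each programme is known for can be seen beside the expression values. Each is the 250 bases before the RefSeq start site in GRCh38.p14, written 5′ to 3′ on the strand of the gene. Capitals mark matches, on either strand, to TTTGAA (CHR) in DLGAP5 (chr14:55191586-55191835, minus strand) and MKI67 (chr10:128126424-128126673, minus strand), CACGNG, 5 bases of any kind and CACGNG (ChoRE) in TXNIP (chr1:145996580-145996829, minus strand, the start used being 1 of 2 listed), GNACA, 4 bases and GTNCT (the androgen response element, ARE) in KLK2 (chr19:50873189-50873438, plus strand) and KLK3 (chr19:50854665-50854914, plus strand), and CCAAT, 9 bases and CCACG (the ER stress element) in CALR (chr19:12938359-12938608, plus strand). Only the motif named for each gene is in capitals, and the TXNIP promoter also matched the ARE letters on the other strand. Every ER stress element holds a CCAAT, and motifs may share bases, as the last CHR match of MKI67 does with a CCAAT on the other strand.
DLGAP5: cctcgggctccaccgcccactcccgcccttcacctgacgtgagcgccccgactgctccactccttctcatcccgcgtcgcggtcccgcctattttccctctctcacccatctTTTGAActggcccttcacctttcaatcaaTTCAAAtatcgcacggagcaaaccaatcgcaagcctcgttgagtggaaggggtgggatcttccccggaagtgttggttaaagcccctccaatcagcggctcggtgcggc
MKI67: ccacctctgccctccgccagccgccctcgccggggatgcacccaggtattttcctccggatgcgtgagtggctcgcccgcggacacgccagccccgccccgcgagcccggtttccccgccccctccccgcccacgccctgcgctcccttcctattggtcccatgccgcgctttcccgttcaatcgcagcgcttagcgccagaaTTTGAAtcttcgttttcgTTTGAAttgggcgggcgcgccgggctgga
TXNIP: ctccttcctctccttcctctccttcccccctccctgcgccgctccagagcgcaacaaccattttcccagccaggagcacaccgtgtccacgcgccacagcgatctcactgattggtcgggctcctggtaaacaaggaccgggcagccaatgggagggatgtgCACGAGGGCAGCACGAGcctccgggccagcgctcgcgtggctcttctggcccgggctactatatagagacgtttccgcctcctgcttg
KLK2: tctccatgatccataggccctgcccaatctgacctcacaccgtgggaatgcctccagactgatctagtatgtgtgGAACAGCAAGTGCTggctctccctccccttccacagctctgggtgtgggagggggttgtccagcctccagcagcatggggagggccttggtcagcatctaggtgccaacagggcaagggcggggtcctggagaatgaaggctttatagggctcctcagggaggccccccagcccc
KLK3: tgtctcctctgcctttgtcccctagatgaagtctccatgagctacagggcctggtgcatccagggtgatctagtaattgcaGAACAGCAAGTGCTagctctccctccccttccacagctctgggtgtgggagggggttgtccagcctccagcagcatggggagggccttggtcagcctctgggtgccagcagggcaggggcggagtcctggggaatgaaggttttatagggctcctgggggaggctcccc
CALR: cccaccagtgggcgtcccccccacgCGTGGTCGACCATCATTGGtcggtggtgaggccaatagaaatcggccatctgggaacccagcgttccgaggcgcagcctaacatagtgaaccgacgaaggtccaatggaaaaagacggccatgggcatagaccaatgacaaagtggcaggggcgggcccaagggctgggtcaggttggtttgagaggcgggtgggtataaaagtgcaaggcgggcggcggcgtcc

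DLGAP5 and MKI67 each had 2 CHR matches, in MKI67 at 47 and 29 bases before the start. The ARE letters lay 175 bases before the start of KLK2 and 169 before that of KLK3, and these neighbouring promoters shared 205 of 250 bases (82%). Of all 27305 genes with a listed promoter, 16.1% held TTTGAA, 37.0% CCAAT, 0.0586% the ChoRE letters, 0.729% the ARE letters and 0.0916% the ER stress element. Here and below a gene was counted if the 250 bases before any of its listed starts held a match. A match is a run of letters and was not measured as a binding site here.

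The libraries held 15830745 to 24316740 reads in genes, and the runs overlapped in depth (exact permutation test, two-sided, p = 0.611, adjusted over 5 such checks 0.611). No pair of libraries was identical. The share of reads in 30 cytosolic ribosomal protein genes was 2.63% ± 0.0255 in libraries 51 to 55 and 2.79% ± 0.0927 in libraries 71 to 75 (SD, n = 5 each), with no overlap (exact permutation p = 0.00794, the smallest that 5 against 5 allows, adjusted p = 0.0397). Libraries 73 and 74 scored highest on the first principal component (40.2% of the variance), at 30.8 and 18.9, against -18.3 to 0.82 for the rest. In the same libraries levels rose with the GC content of the gene, by 0.218 and 0.120 on the log2 scale per 10 points of GC, against -0.128 to 0.0231 elsewhere. Libraries 51, 52 and 53 had the lowest slopes (-0.076, -0.128 and -0.0979). Libraries 71, 72 and 75 (-0.034, -0.00774 and -0.0129) lay above these and below libraries 54 and 55 (0.0231 and -0.00544). Leaving out libraries 73 and 74 thus does not even out the GC slopes of the runs. The counts below are therefore also given after a GC correction and without libraries 73 and 74, both chosen after the data had been seen.

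**Figure D1:**
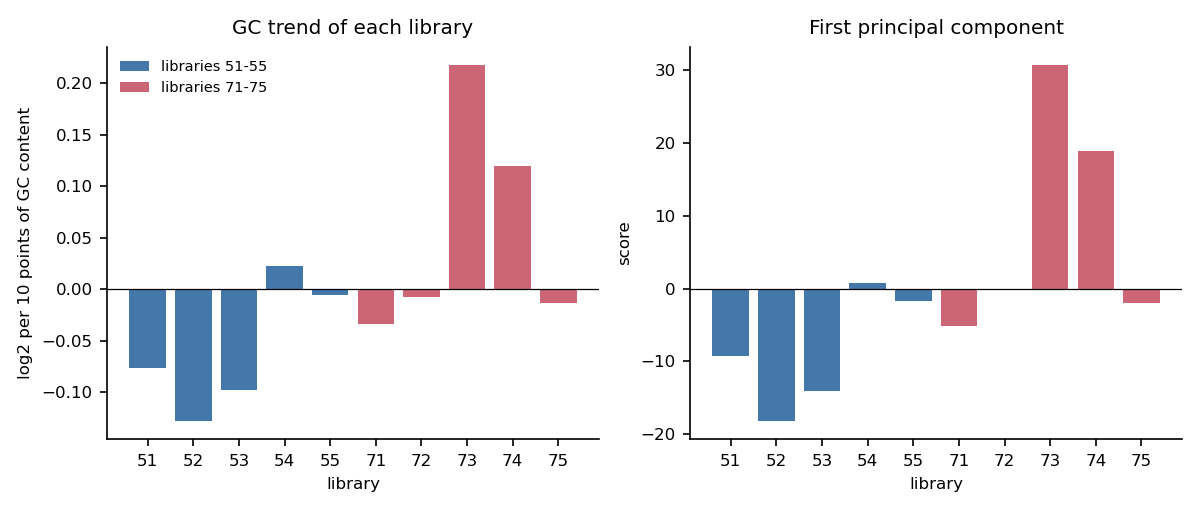
GC trend (left, log2 change in level per 10 points of GC content) and score on the first principal component (right) for each of the 10 R1881 libraries, 1 bar per library. Libraries 73 and 74 are the only ones with a GC slope of 0.120 or more and with a score of 18.9 or more.

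Between the runs, 139 genes were higher (0.805% of 17272) and 396 lower (2.29%) in libraries 71 to 75 at a limma adjusted p under 0.05, so 535 passed in all (3.1%) and 26.0% of the calls were rises. The median log2 difference over all genes was -0.01. Levels of the runs did not overlap for 328 genes higher (1.9%) and 813 lower (4.71%), 1141 in all (6.61%). After GC correction, 426 of 14804 genes were higher (2.88%) and 509 lower (3.44%), and rises made up 45.6% of calls. Without libraries 73 and 74 the counts were 61 (0.353%) and 95 (0.55%), with 39.1% rises. Rises also made up 43.9% of calls in DESeq2, 41.1% with voom weights and 47.4% with GC content and length corrected. The counts rested on single libraries as well, being 20 and 30 without library 51, 23 and 36 without 52, 22 and 51 without 53, 30 and 56 without 74, 67 and 208 without 72, and 307 and 642 without 71. Without library 55 there were 73 rises, and without library 73 there were 244 falls. Of the genes named here, 15 passed with each library left out in turn (BMX, BTG1, BTG2, CDK1, DLGAP5, DNAJB1, ECT2, GINS1, KLK2, KLK3, MKI67, RBM3, RSRP1, TMPRSS2 and TXNIP), and the others that passed lost their call without at least 1 library. Genes called lower had a median GC content of 40.3% and a median length of 5154 bases, those called higher 54.6% and 2905, and the rest 47.7% and 3448.

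Mitosis genes were lower in libraries 71 to 75. Of 40 such genes, all measured, 28 fell (2.29% of all genes did), and 0 rose by limma, edgeR or DESeq2 or at an unadjusted p under 0.05. The median log2 difference was -0.27 against -0.01 for all genes. In 28 of them the runs did not overlap (4.71% of all genes). The mean log2(CPM + 0.5) of the list was 5.62, 5.62, 5.52, 5.50 and 5.52 in libraries 51 to 55 and 5.34, 5.33, 5.22, 5.22 and 5.39 in libraries 71 to 75, so the lowest library of the first run lay above the highest of the second. ECT2, the exchange factor that starts the cleavage furrow, read 95.2, 93.8, 88.2, 86.5 and 84.8 CPM in libraries 51 to 55 and 72.2, 70.5, 65.1, 64.1 and 72.4 CPM in libraries 71 to 75. Every library of the second run was below every library of the first, with a log2 difference of -0.38 (SE 0.05, adjusted p = 0.00202) by limma. DLGAP5, a spindle microtubule protein whose promoter is printed above, read 55.7, 53.4, 50.4, 46.6 and 48.9 CPM in libraries 51 to 55 and 41.9, 40.00, 37.2, 36.4 and 40.2 CPM in libraries 71 to 75. Again no library of the runs overlapped, and the difference was -0.38 (SE 0.06, adjusted p = 0.00602). MKI67, which codes for the proliferation antigen Ki-67, read 118, 123, 117, 116 and 121 CPM in libraries 51 to 55 and 102, 99.01, 91.2, 88.6 and 104 CPM in libraries 71 to 75. Libraries 73 and 74 were its lowest and the gap between runs remained without them. Its difference was -0.30 (SE 0.05, adjusted p = 0.00748), -0.22 (adjusted p = 0.00541) without libraries 73 and 74 and -0.28 (adjusted p = 7.52e-05) after GC correction.

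The falls took in other steps of mitosis. CDK1, the kinase that drives entry, went from 297 ± 15.6 CPM to 246 ± 10.9 CPM (SD, n = 5 each), a log2 difference of -0.27, adjusted p = 0.00748. Its cyclin CCNB1 differed by -0.21, adjusted p = 0.019, the kinetochore protein CENPF by -0.30, adjusted p = 0.0131 and topoisomerase TOP2A by -0.28, adjusted p = 0.0179. In RNA from a whole culture, fewer dividing cells and less of these RNAs per cell cannot be told apart. Not all members passed: AURKB read 10.6 to 13.3 CPM in libraries 51 to 55 and 10.6 to 13.9 CPM in libraries 71 to 75 with a difference of -0.05, adjusted p = 0.726, and AURKA differed by -0.12, adjusted p = 0.222. The GC-rich members PLK1 (-0.19, adjusted p = 0.119), CDC20 (-0.11, adjusted p = 0.236) and FOXM1 (-0.16, adjusted p = 0.0739), the last a transcription factor for mitosis genes, passed after GC correction, at -0.29 (adjusted p = 0.00228), -0.22 (adjusted p = 0.00567) and -0.24 (adjusted p = 0.00447). With that correction 34 of 40 passed lower (3.44% of genes tested) and the median was -0.22. Without libraries 73 and 74, 14 of 40 passed (0.55%), with a median of -0.21. Leaving out library 51 left 6 members, 52 left 7, 53 left 11 and 74 left 10. CDK1, DLGAP5, ECT2 and MKI67 kept their calls in each of these fits. Of the 33 mitosis genes with a listed promoter, 18 held TTTGAA (54.5%, against 11.6% of 9968 genes tested with a promoter). CCAAT was in 27 (81.8%, against 42.1%). These shares describe how the list was chosen and not the difference between runs. TTTGAA occurred in 13 of 24 members that fell and in 5 of 9 that did not pass, and CCAAT in 18 of 24 and 9 of 9.

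**Figure D2:**
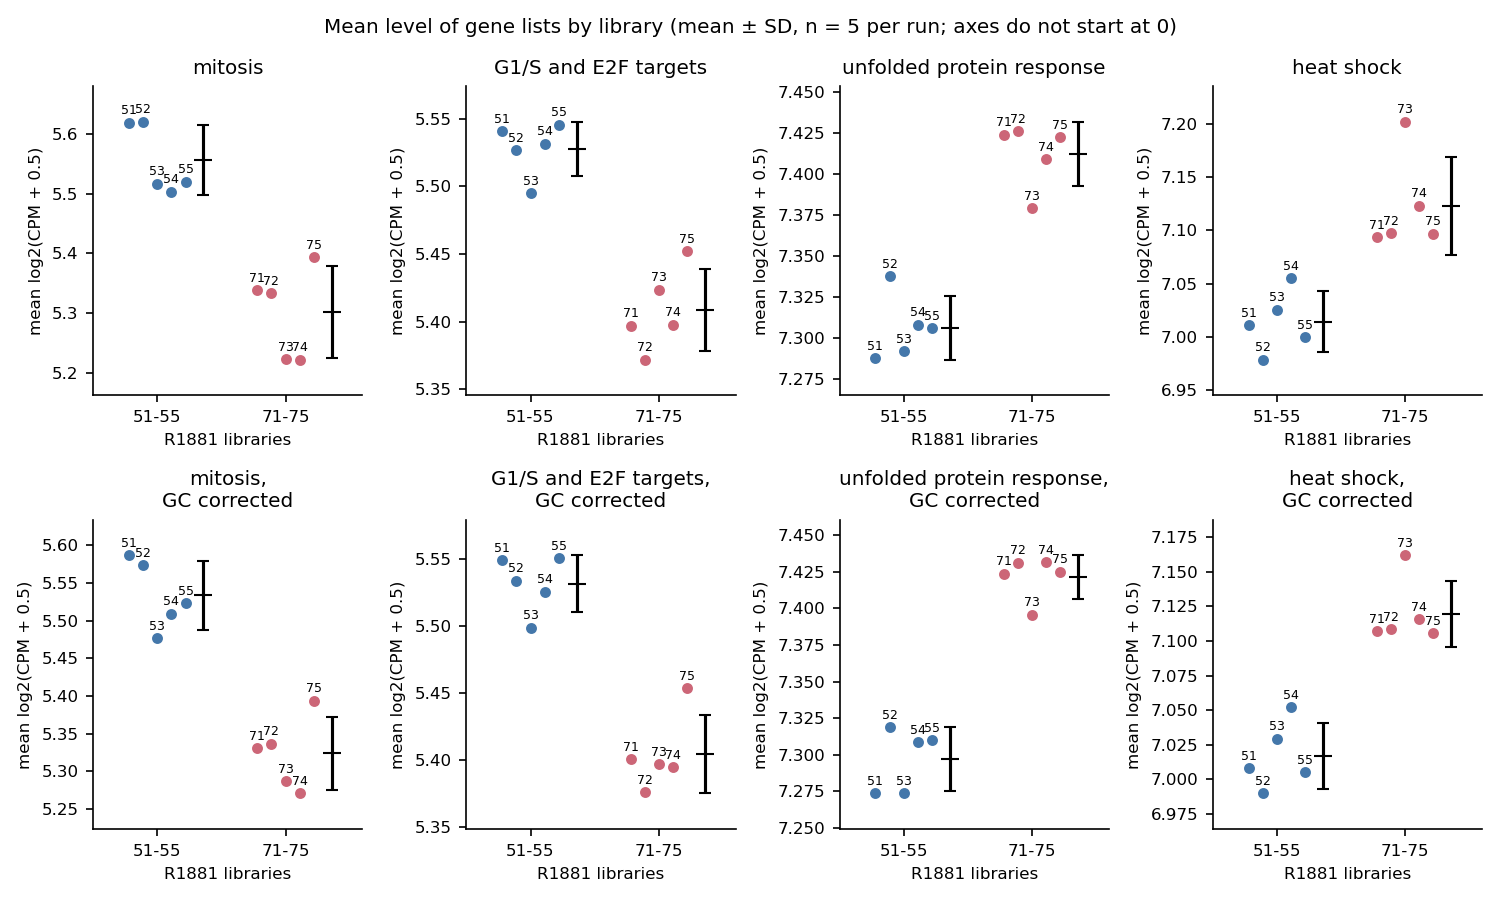
Mean log2(CPM + 0.5) of 4 gene lists by library, as deposited (top) and after GC correction (bottom), with 1 numbered point per library and bars for the mean ± SD of each run (n = 5). In the mitosis and the G1/S lists all 5 libraries of 71 to 75 lie below all 5 of 51 to 55, in the unfolded protein response and heat shock lists they lie above, and the axes do not start at 0.

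Some genes of the earlier part of the cycle were lower as well. Of 35 genes of the G1/S transition and E2F targets, 9 fell (2.29% of all genes did), with a median of -0.12, and 0 rose by limma, edgeR or DESeq2 or at an unadjusted p under 0.05. The list mean was 5.54, 5.53, 5.49, 5.53 and 5.55 in libraries 51 to 55 and 5.40, 5.37, 5.42, 5.40 and 5.45 in libraries 71 to 75, again without overlap. GINS1, part of the replicative helicase, read 52.96, 51.3, 49.8, 45.5 and 48.5 CPM in libraries 51 to 55 and 41.3, 39.7, 39.03, 38.6 and 40.2 CPM in libraries 71 to 75. All of the second run was below the first, and the limma difference was -0.31 (SE 0.05, adjusted p = 0.00672). The ribonucleotide reductase subunits RRM2 (-0.30, adjusted p = 0.0154) and RRM1 (-0.20, adjusted p = 0.0246), which supply DNA precursors, both fell. So did thymidylate synthase TYMS (-0.24, adjusted p = 0.0123), the polymerase subunit POLA1 (-0.22, adjusted p = 0.0337) and the sliding clamp PCNA (-0.15, adjusted p = 0.0424). MCM6 (-0.14, adjusted p = 0.0965) and CDC25A (-0.08, adjusted p = 0.332) did not pass, and the licensing factor CDT1 read 4.90 to 7.31 CPM in libraries 51 to 55 and 5.40 to 10.98 CPM in libraries 71 to 75, with library 73 highest. The promoters of this list held TTTGAA in 2 of 29 cases and an E2F site (TTTCCCGC or TTTGGCGC, either strand) in 12 of 29 (41.4%, against 3.99% of 9968 genes tested with a promoter). The list was drawn up as E2F targets, so that share describes the list and not the difference between runs. After GC correction 14 of 35 fell (3.44% of genes tested) and without libraries 73 and 74 4 did (0.55%). The count was 1 without library 51, 2 without 52, 3 without 53, 5 without 55, 5 without 72 and 2 without 74, while GINS1 passed with each of the 10 libraries left out.

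Of 18 genes that hold cells out of the cycle, 1 rose and 1 fell (0.805% and 2.29% of all genes), and the movers were members of the same antiproliferative family. BTG2 read 39.8, 42.3, 40.5, 41.9 and 41.3 CPM in libraries 51 to 55 and 49.3, 50.1, 51.1, 48.1 and 53.6 CPM in libraries 71 to 75. All 5 libraries of the second run were above the first, at a log2 difference of 0.29 (SE 0.04, adjusted p = 0.00602) by limma, and it was 0.31 (adjusted p = 0.00304) without libraries 73 and 74. BTG1 read 210.5, 214, 218, 193 and 200.3 CPM in libraries 51 to 55 and 181, 176, 171, 180.4 and 175 CPM in libraries 71 to 75. It moved the other way, also without overlap, by -0.23 (SE 0.04, adjusted p = 0.0117). CDKN2C, an inhibitor of CDK4 and CDK6, differed by -0.18, adjusted p = 0.119 and passed after GC correction, at -0.30 (adjusted p = 0.0192). With that correction 3 of the 18 were higher and 2 lower (2.88% and 3.44% of genes tested), the other higher ones being SESN1, a stress-induced inhibitor of growth signalling, at 0.13 (adjusted p = 0.00216), and TOB1, a further relative of BTG1, at 0.09 (adjusted p = 0.0202).

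Of 5 cold-shock genes, 2 fell (2.29% of all genes did), and 0 rose by limma, edgeR or DESeq2 or at an unadjusted p under 0.05. RBM3, a cold-inducible RNA-binding protein (chrX:48574449-48581162, plus strand), read 387, 409, 401, 365 and 376 CPM in libraries 51 to 55 and 292, 282, 257, 291 and 282 CPM in libraries 71 to 75. The highest library of the second run was far below the lowest of the first. The levels went from 387 ± 17.9 CPM to 281 ± 13.8 CPM (SD, n = 5 each), a log2 difference of -0.46 (SE 0.04, adjusted p = 4.13e-05) by limma. It was -0.44 (adjusted p = 5.73e-07) without libraries 73 and 74, -0.43 (adjusted p = 1.62e-08) after GC correction, and RBM3 passed with each library left out. CIRBP, the related cold-inducible protein, read 319.5, 307, 328, 301 and 311 CPM in libraries 51 to 55 and 279, 275, 285, 295 and 282 CPM in libraries 71 to 75. Here too the second run lay below the first, although the difference of -0.15 (SE 0.03, adjusted p = 0.0323) was smaller than that of RBM3. Its call was lost in edgeR (adjusted p = 0.0508), which kept 1 of the 5 genes, and without library 51 (adjusted p = 0.101), 52 (0.077), 53 (0.107), 55 (0.0545), 72 (0.0724), 74 (0.0591) or 75 (0.0539). Without libraries 73 and 74 together it was -0.17 (adjusted p = 0.0163).

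Among 15 genes of glucose sensing, 1 rose (0.805% of all genes did) and the median was 0.11. The median was 0.08 after GC correction and 0.06 without libraries 73 and 74. The list mean of log2(CPM + 0.5) overlapped, at 5.03 to 5.19 in libraries 51 to 55 and 5.15 to 5.35 in libraries 71 to 75, with library 73 highest. By limma, edgeR or DESeq2, or at an unadjusted p under 0.05, 0 fell. TXNIP, the member that rose, read 133, 147, 141, 129.7 and 135 CPM in libraries 51 to 55 and 202, 203, 182, 188 and 201 CPM in libraries 71 to 75. The lowest library of the second run, 73, was above the highest of the first, 52. The levels went from 137 ± 6.78 CPM to 195 ± 9.63 CPM (SD, n = 5 each), which is 1.43-fold, with a log2 difference of 0.51 (SE 0.04, adjusted p = 2.84e-05) by limma. The difference was 0.56 (adjusted p = 3.92e-08) without libraries 73 and 74 and 0.57 (adjusted p = 6.02e-11) after GC correction, and TXNIP passed in all 13 alternatives and with each library left out. ARRDC4, the other arrestin-family gene under the same glucose sensors, read 20.9, 23.97, 22.2, 22.2 and 21.6 CPM in libraries 51 to 55 and 24.1, 24.3, 19.9, 21.3 and 23.4 CPM in libraries 71 to 75. Its runs overlapped, with a difference of 0.03 (SE 0.06, adjusted p = 0.834). MLX, the partner of MondoA and ChREBP, read 121 to 129.7 CPM in libraries 51 to 55 and 134 to 139 CPM in libraries 71 to 75, without overlap, and its difference was 0.12, adjusted p = 0.0598, and 0.10 (adjusted p = 0.0269) after GC correction. FASN, the fatty acid synthase and a target of ChREBP, read 684, 498, 602, 782 and 755 CPM in libraries 51 to 55 and 628, 687, 1329.6, 983 and 659 CPM in libraries 71 to 75. Libraries 73 and 74 were above all others, and the difference of 0.32, adjusted p = 0.262 was 0.00 (adjusted p = 0.989) without them. The ChoRE letters occurred in the promoter of 1 of 12 list members with a listed promoter, TXNIP itself.

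**Figure D3:**
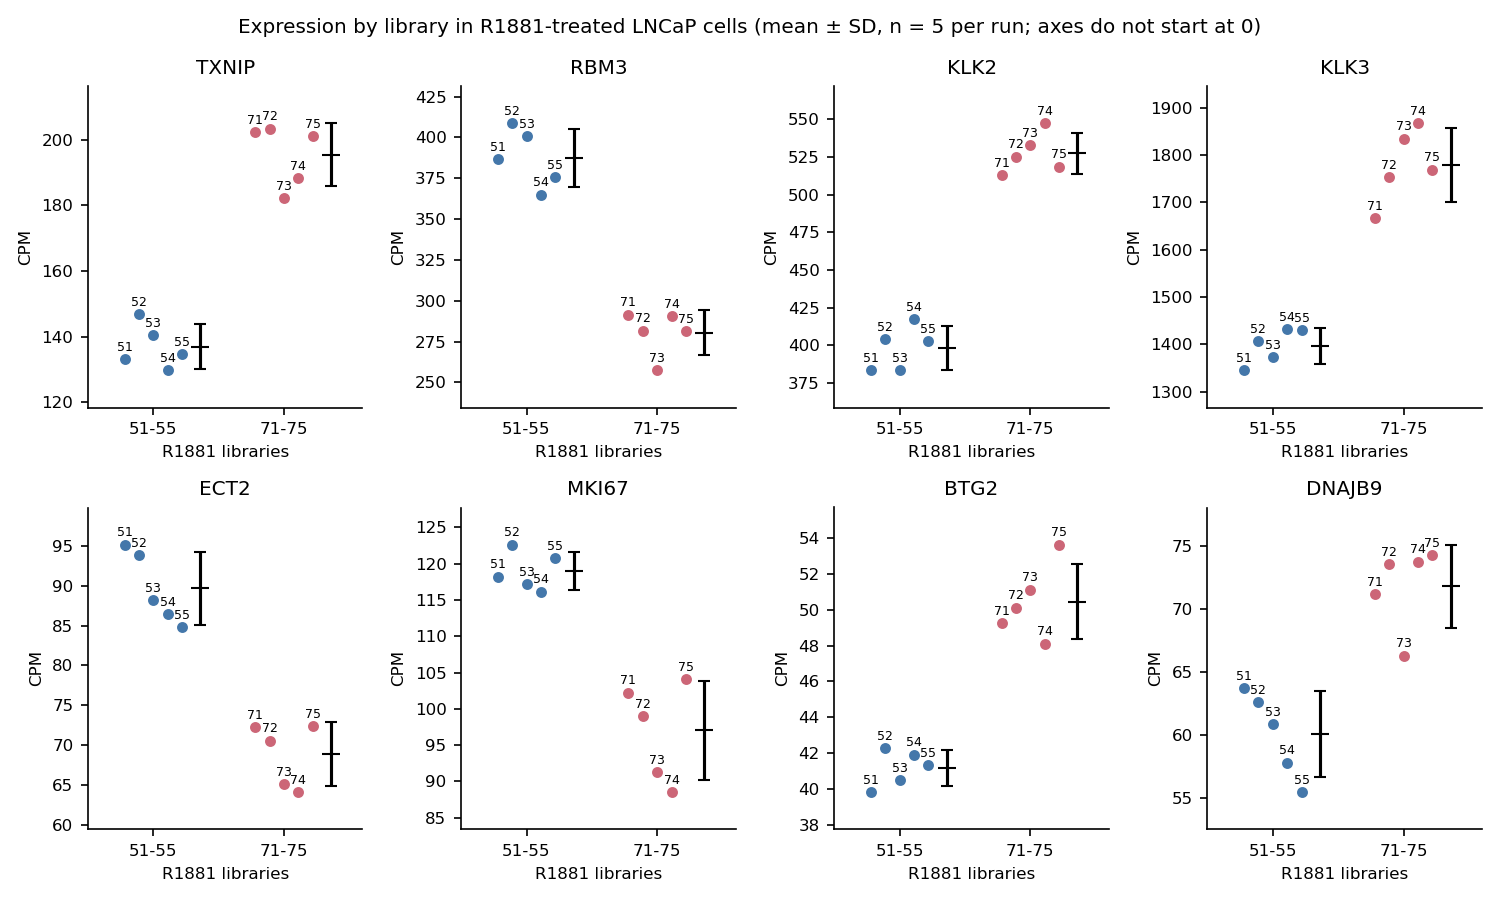
Expression in CPM of 8 genes of the programmes described, with 1 numbered point per library and bars for the mean ± SD of each run (n = 5). In each panel the libraries 51 to 55 and 71 to 75 do not overlap; TXNIP, KLK2, KLK3, BTG2 and DNAJB9 are higher and RBM3, ECT2 and MKI67 lower in 71 to 75, and the axes do not start at 0.

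Of 15 kallikrein genes, 4 were in the table and 2 of these rose (0.805% of all genes did). KLK2, a trypsin-like protease that activates PSA, read 384, 404, 383, 417 and 403 CPM in libraries 51 to 55 and 513, 525, 533, 547 and 518 CPM in libraries 71 to 75. The runs did not overlap, and the levels went from 398 ± 14.6 CPM to 527 ± 13.4 CPM (SD, n = 5 each), a log2 difference of 0.40 (SE 0.03, adjusted p = 2.84e-05) by limma. KLK3, which codes for PSA, read 1345, 1407, 1372, 1432 and 1430.4 CPM in libraries 51 to 55 and 1667, 1753, 1835, 1868 and 1769.8 CPM in libraries 71 to 75. These runs did not overlap either, with a difference of 0.35 (SE 0.04, adjusted p = 0.000227). Without libraries 73 and 74 the differences were 0.38 (adjusted p = 1.17e-06) for KLK2 and 0.31 (adjusted p = 2.32e-05) for KLK3, and both genes passed with each library left out. KLK4, an androgen-induced protease from the same cluster of genes, read 198, 174, 179, 219 and 188 CPM in libraries 51 to 55 and 177, 189, 273, 226 and 192 CPM in libraries 71 to 75. Its runs overlapped and the difference of 0.13 (SE 0.09, adjusted p = 0.417) turned to -0.04 (adjusted p = 0.829) without libraries 73 and 74 and to -0.04 (adjusted p = 0.58) after GC correction. KLK15 was low, at 1.19 to 1.74 CPM in libraries 51 to 55 and 1.10 to 1.76 CPM in libraries 71 to 75, with a difference of -0.04, adjusted p = 0.87.

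Of 39 androgen-induced genes besides the kallikreins, 3 rose and 1 fell (0.805% and 2.29% of all genes), and the median was 0.01. TMPRSS2, a membrane protease, read 819, 811, 791, 805 and 789.5 CPM in libraries 51 to 55 and 891, 889, 918, 898 and 892 CPM in libraries 71 to 75. The second run lay above the first by a narrow gap, at 0.16 (SE 0.03, adjusted p = 0.0127) by limma. TSC22D3, a leucine zipper protein that glucocorticoids also induce (0.26, adjusted p = 0.0295), and the acute-phase gene ORM1 (0.29, adjusted p = 0.0331) rose too. They were 0.29 (adjusted p = 0.0151) and 0.27 (adjusted p = 0.0641) without libraries 73 and 74, and whether reads of ORM1 were divided with its near-identical copy ORM2 was not tested. FKBP5, the immunophilin often read as a measure of receptor activity, read 1576, 1597, 1581, 1544 and 1499 CPM in libraries 51 to 55 and 1534, 1498, 1324, 1389 and 1476 CPM in libraries 71 to 75. The runs overlapped, and the difference of -0.11, adjusted p = 0.123 was -0.05 (adjusted p = 0.5) without libraries 73 and 74 and -0.03 (adjusted p = 0.379) after GC correction. The elongation factor gene EAF2 fell (-0.19, adjusted p = 0.0452), and without libraries 73 and 74 it was -0.19 (adjusted p = 0.0932). After GC correction 8 of the 39 were higher (2.88% of genes tested). Of 14 androgen-repressed genes, 2 fell (2.29% of all genes did), NTS, which codes for neurotensin (-0.32, adjusted p = 0.0358), and the glucuronosyltransferase UGT2B17 (-0.20, adjusted p = 0.0244), whose reads are hard to tell from its close relatives. Neither passed without libraries 73 and 74, at -0.22 (adjusted p = 0.13) and -0.14 (adjusted p = 0.0576).

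**Figure D4:**
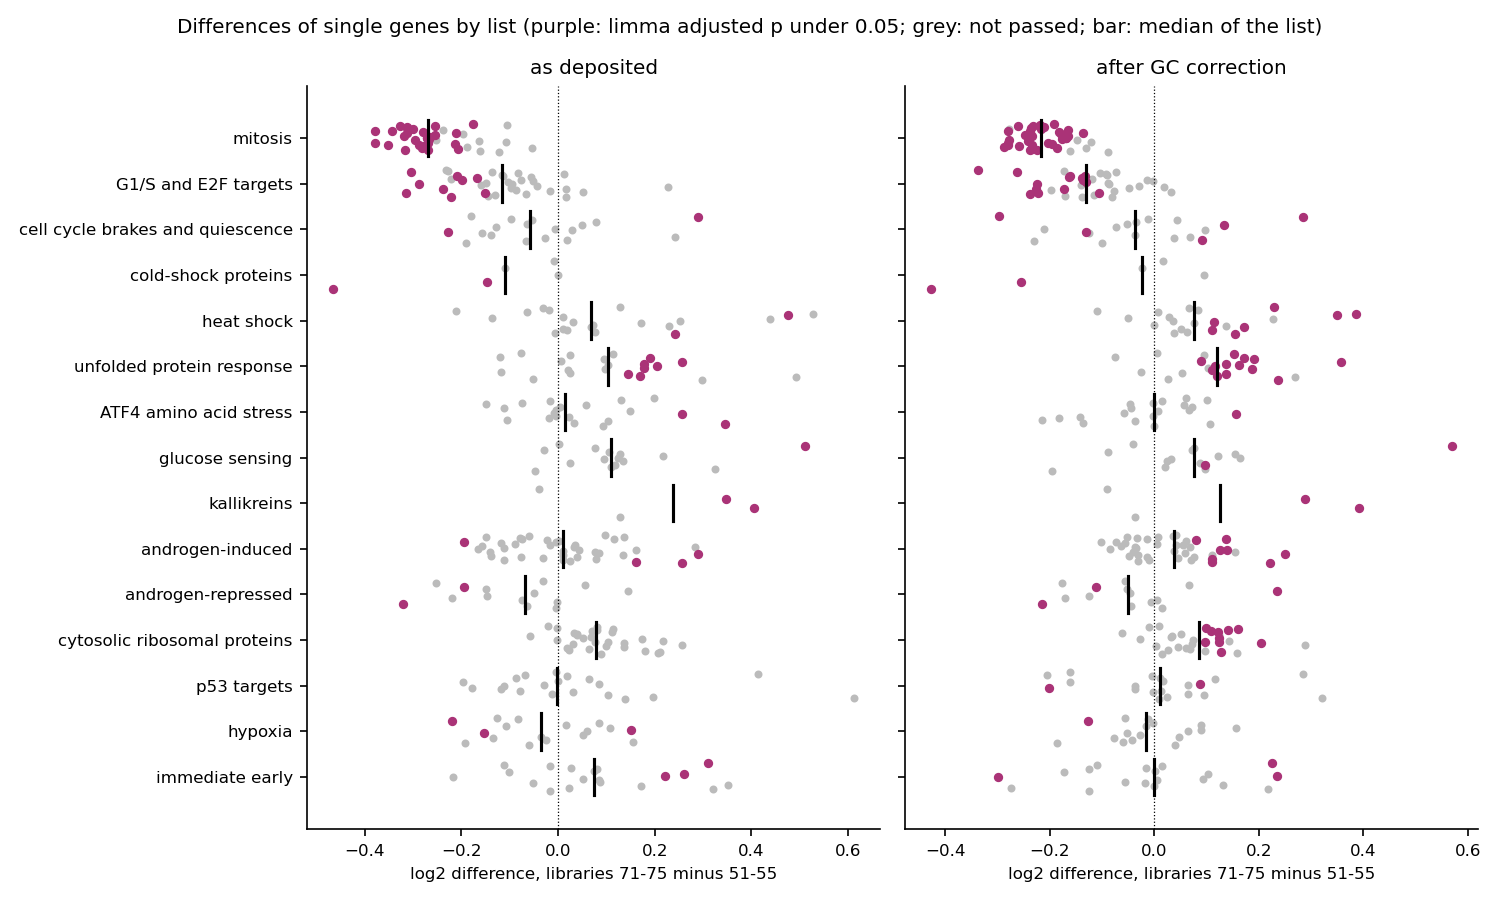
Log2 differences (libraries 71 to 75 minus 51 to 55) of single genes in 15 lists as deposited (left) and after GC correction (right). Each point is a gene, purple where the limma adjusted p was under 0.05 and grey where it was not, and bars mark the list medians; the mitosis median is -0.27 as deposited and -0.22 corrected.

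Of 21 heat shock genes, 2 rose (0.805% of all genes did), with a median of 0.07. By limma, edgeR or DESeq2 0 fell, and 1 was lower at an unadjusted p under 0.05. DNAJB1, the co-chaperone that HSF1 induces early, read 117, 115, 115, 121 and 116 CPM in libraries 51 to 55 and 137, 134, 141, 138 and 141 CPM in libraries 71 to 75. All 5 of the second run were above the first, at a difference of 0.24 (SE 0.03, adjusted p = 0.00328) by limma, and DNAJB1 passed without each library in turn. HSPA1B, an inducible HSP70 gene, read 107, 87.5, 94.7, 110.3 and 106 CPM in libraries 51 to 55 and 122, 123, 189, 157 and 121 CPM in libraries 71 to 75. The runs did not overlap, and libraries 73 and 74 were the highest, the difference being 0.48 (SE 0.11, adjusted p = 0.0296) with them and 0.28 (adjusted p = 0.0163) without. Its near-identical copy HSPA1A read 43.4 to 58.01 CPM in libraries 51 to 55 and 58.4 to 119 CPM in libraries 71 to 75 and differed by 0.53, adjusted p = 0.0824, and by 0.20 (adjusted p = 0.173) without those libraries. How reads were divided between the copies was not tested, so the values of both are uncertain. HSPB1, a small heat shock protein, read 44.6, 31.7, 35.8, 48.1 and 43.4 CPM in libraries 51 to 55 and 40.95, 43.8, 92.6, 67.05 and 43.97 CPM in libraries 71 to 75. Libraries 73 and 74 were above all others here too, and the difference of 0.44, adjusted p = 0.169 was 0.09 (adjusted p = 0.728) without them. After GC correction 7 of 21 passed higher (2.88% of genes tested), among them CHORDC1, an HSP90 partner, at 0.17 (adjusted p = 0.000864). The count of members that rose was 1 without library 51, 52, 53 or 74.

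The unfolded protein response list rose in 7 of 21 members (0.805% of all genes did), with a median of 0.10. By limma, edgeR or DESeq2 0 fell, and 2 were lower at an unadjusted p under 0.05. Its mean log2(CPM + 0.5) was 7.29, 7.34, 7.29, 7.31 and 7.31 in libraries 51 to 55 and 7.42, 7.43, 7.38, 7.41 and 7.42 in libraries 71 to 75, without overlap. DNAJB9, an ER co-chaperone induced through XBP1, read 63.7, 62.6, 60.8, 57.8 and 55.5 CPM in libraries 51 to 55 and 71.2, 73.6, 66.3, 73.8 and 74.3 CPM in libraries 71 to 75. All libraries of the second run were above the first, by 0.26 (SE 0.05, adjusted p = 0.0158). CALR, the ER lectin calreticulin, read 1207, 1339, 1250.4, 1368 and 1367 CPM in libraries 51 to 55 and 1487, 1489.6, 1431, 1434 and 1493 CPM in libraries 71 to 75. Its second run was above the first throughout, and the difference was 0.17 (SE 0.04, adjusted p = 0.0306). PDIA4, a disulfide isomerase (0.18, adjusted p = 0.0239), MANF, a secreted ER stress protein (0.19, adjusted p = 0.0309), HYOU1, an ER chaperone (0.18, adjusted p = 0.0323), SYVN1, a ligase for ER-associated degradation (0.21, adjusted p = 0.0382), and the sensor ERN1 (0.14, adjusted p = 0.0482) made up the rest. HSPA5, the main ER chaperone BiP, read 819 to 897 CPM in libraries 51 to 55 and 851 to 940.3 CPM in libraries 71 to 75 and differed by 0.10, adjusted p = 0.122, and HSP90B1 differed by 0.10, adjusted p = 0.139. Both passed after GC correction, at 0.16 (adjusted p = 0.000523) and 0.19 (adjusted p = 1.4e-05), and 13 of 21 then rose (2.88% of genes tested). SEL1L, the partner of SYVN1, differed by -0.12, adjusted p = 0.135. Of the 21 promoters, 7 held the ER stress element (33.3%, against 0.161% of 9968 genes tested with a promoter). A CCAAT lay in 19 (90.5%, against 42.1%). Both shares describe the list as chosen and not the difference between runs. Of the 7 members that rose as deposited, only CALR held the ER stress element. The count of members that rose was again 7 without libraries 73 and 74 (0.353% of all genes). SYVN1 at 0.15 (adjusted p = 0.125) and ERN1 at 0.16 (adjusted p = 0.0589) no longer passed then, while HSP90B1 at 0.14 (adjusted p = 0.0421) and PDIA6, a disulfide isomerase, at 0.15 (adjusted p = 0.0261), did. The count was 1 without library 51, 2 without 52, 0 without 53, 4 without 55, 3 without 72, 0 without 74 and 4 without 75. Of 20 ATF4 targets of amino acid stress, 2 rose (0.805% of all genes did), CEBPB (0.35, adjusted p = 0.0239) and the mitochondrial serine enzyme SHMT2 (0.26, adjusted p = 0.0251), and the median was 0.01. CEBPB did not pass after GC correction, at 0.11 (adjusted p = 0.618).

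The largest changes among genes that passed without overlap lay mostly outside these lists. The largest rises were those of RP5-882O7.1 (0.59, adjusted p = 0.0295) and KB-1683C8.1 (0.57, adjusted p = 0.0301), which were 0.60 (adjusted p = 0.00907) and 0.57 (adjusted p = 0.00935) without libraries 73 and 74. RP5-882O7.1 read 13.5 to 16.7 CPM in libraries 51 to 55 and 17.3, 28.6, 29.8, 18.2 and 26.0 CPM in libraries 71 to 75. KB-1683C8.1 read 14.3 to 17.8 CPM and 18.3, 29.3, 30.8, 18.7 and 27.1 CPM. Libraries 71 and 74 thus lay just above the first run in both. These entries moved together library by library, and whether they count the same reads was not tested. RSRP1, whose product is rich in arginine and serine, read 15.6, 17.04, 15.9, 12.97 and 15.3 CPM in libraries 51 to 55 and 22.9, 24.6, 20.98, 21.4 and 24.1 CPM in libraries 71 to 75. The second run was higher throughout, by 0.56 (SE 0.07, adjusted p = 0.00209), and the gene passed in all 13 alternatives. NUPR1, a stress-induced chromatin protein, went from 60.6 ± 4.09 CPM to 82.8 ± 12.2 CPM (SD, n = 5 each), a difference of 0.44, adjusted p = 0.0145, which was 0.29 (adjusted p = 0.00796) without libraries 73 and 74. C11orf84 (0.46, adjusted p = 0.0448) was 0.29 (adjusted p = 0.175) without them. CDK2AP2 (0.48, adjusted p = 0.0416) and the mannosyltransferase ALG12 (0.40, adjusted p = 0.0378) were led by libraries 73 and 74 and did not pass without them, at 0.30 (adjusted p = 0.0976) and 0.24 (adjusted p = 0.121). Among falls, the transmembrane protein SLITRK6 went from 6.62 ± 0.711 CPM to 4.55 ± 0.486 CPM (SD, n = 5 each), by -0.50, adjusted p = 0.019, and was -0.42 (adjusted p = 0.0645) without libraries 73 and 74. ZNF724P (-0.46, adjusted p = 0.0299) and ZNF66 (-0.43, adjusted p = 0.0256), which belong to a large family of zinc finger genes with similar sequences, were -0.36 (adjusted p = 0.112) and -0.39 (adjusted p = 0.0823) without them. The mitotic kinesin KIF20B, which the mitosis list did not hold, differed by -0.42, adjusted p = 0.0127. GAS2L3, a cytoskeletal protein of cell division that was not on it either, fell by 0.47 (adjusted p = 0.0123). The tyrosine kinase BMX (-0.46, adjusted p = 0.013), the thyroid hormone-binding crystallin CRYM (-0.43, adjusted p = 0.0193), NAALAD2, a peptidase related to PSMA (-0.42, adjusted p = 0.0239), and POTEF (-0.42, adjusted p = 0.0239), one of a family of near-identical copies, fell as well. BMX read 6.26, 6.26, 7.43, 6.10 and 6.35 CPM in libraries 51 to 55 and 4.57, 4.33, 4.59, 4.53 and 4.80 CPM in libraries 71 to 75. The runs did not overlap, with library 53 above the other 4 of its run.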

How the data were processed

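Poly-A RNA was converted to libraries with a stranded kit and read as 50-base single ends. The authors made base calls with bcl2fastq 2.17, aligned reads to GRCh38 with STAR and counted them per gene with featureCounts of the Subread package. Versions of these, the annotation, the strand setting and the filter on genes are not given in the sources used here. The deposited values, called CPM, are a scaled signal per gene: 100% of them were whole reads divided by 1 factor per library (tolerance 0.001 reads). The edgeR test planned for counts was therefore an alternative, run on the recovered reads, where it called 165 genes higher and 308 lower. Here limma (3.58.1, trend) was run in R 4.3.3 on log2(CPM + 0.5) of all 17272 genes, libraries 71 to 75 against 51 to 55, with Benjamini-Hochberg adjustment and a threshold of 0.05. Differences are on that log2 scale and understate changes of low genes. Shares of reads were compared with exact permutation tests. The fit was checked on simulated data for the size of known differences. Genes were drawn there independently, without a GC trend or an effect shared by a library, so the check does not cover these. GC content (GENCODE 44, 14804 genes, 85.7%) was removed per library by a spline with 5 degrees of freedom. Promoters are from a set of RefSeq start sites that did not cover every gene tested. Gene positions are those of GENCODE 44, which need not be the annotation used for counting. Genes named are members of the lists, the 3 of smallest p in each further list, and the 10 largest rises and falls with a mean of at least 5 CPM, no overlap and an adjusted p under the threshold. The members, lists and tests were chosen with earlier results of these data known. The 5 darolutamide libraries were not used. Alternatives used edgeR 4.0.16, DESeq2 1.42.0, limma-voom weights, other scalings, pseudocounts of 0.1 and 1, a minimum mean of 1 CPM, thinning to equal depth, a minimum difference of 0.5 and single libraries left out.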

Additional observations from a re-analysis of the deposited data

Results flagged for a closer look

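Of 204 groups of 5 values checked, 5 held a library far from the other 4 of its run, and chance alone flags about 1 in 20 groups. DNAJB1 read 121.4 CPM in library 54 against 115 to 116.5 CPM in the other libraries of 51 to 55, and MANF read 110.2 CPM in library 52 against 97.07 to 100.5 CPM. BMX read 7.426 CPM in library 53 against 6.096 to 6.351 CPM. Among libraries 71 to 75, CDKN2C read 14.88 CPM in library 75 against 12.69 to 13.23 CPM. The mean log2(CPM + 0.5) of the heat shock list was 7.202 in library 73 against 7.094 to 7.123 in the other 4, which goes with the high HSPA1A, HSPA1B and HSPB1 of that library.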

How the results depend on the processing

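The p-values cover the spread between libraries of unknown origin, counts of calls rest on few libraries, and differences of most named genes are under 0.5 on the log2 scale. The GC corrections and the fit without libraries 73 and 74 were chosen after the data had been seen. Genes higher numbered 139 as reported, 424 with DESeq2, 306 with voom weights, 426 with GC content and 443 with GC content and length corrected, 61 without libraries 73 and 74, and 10 at a difference of at least 0.5. Genes lower numbered 396 as reported, 95 without libraries 73 and 74, and 5 at a difference of at least 0.5. Mitosis genes lower numbered 28 as reported, 14 without libraries 73 and 74, and 0 at a difference of at least 0.5. The last setting calls fewer genes by its construction, and the cause of the others was not tested. KLK4 turned from 0.13 to -0.0373 with GC content corrected, to -0.0428 with GC content and length corrected and to -0.0376 without libraries 73 and 74. With each library left out in turn, genes higher ranged from 20 to 307, genes lower from 30 to 642, mitosis genes lower from 6 to 29, G1/S genes lower from 1 to 10, unfolded protein response genes higher from 0 to 8, heat shock genes higher from 1 to 3 and cold-shock genes lower from 1 to 2. Kallikrein genes higher stayed at 2 and glucose sensing genes at 1. ARRDC4 ranged from -0.00088 to 0.0684 and KLK15 from -0.101 to 0.0237. The differences in shares of reads ranged from 0.112 to 0.183 points for the 20 most abundant genes, from -0.0884 to -0.013 for mitochondrially encoded genes and from 0.127 to 0.178 for ribosomal protein genes, those in depth from -2368000 to -36520 reads, and those in genes above 0 from -5.85 to -3.35. Over the named genes, 1036 of the results under other settings kept direction and side of the threshold, 123 lost the call, 42 gained it and 3 turned, and 655, 268, 4 and 3 did so with single libraries left out. No paired analysis was possible because the runs share no library number.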

Other observations

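Of 19 immediate early genes, 3 rose in libraries 71 to 75 by limma (0.805% of all genes did): JUN, part of the AP-1 factor, by 0.31 (adjusted p = 0.0377), MYC by 0.22 (0.0303) and SRF, the serum response factor, by 0.26 (0.0301). JUN read 35.5, 32.3, 36.2, 37.8 and 34.8 CPM in libraries 51 to 55 and 37.6, 43.98, 51.9, 47.2 and 40.1 CPM in libraries 71 to 75. The lowest library of the second run lay just below the highest of the first, and none of the 3 genes passed without libraries 73 and 74. Of 16 clock genes 1 fell (2.29% of all genes did), the repressor CRY1, by -0.26 (SE 0.05, adjusted p = 0.0132). CRY1 read 50.5, 52.9, 53.00, 48.7 and 47.98 CPM in libraries 51 to 55 and 42.97, 43.6, 40.3, 40.00 and 43.8 CPM in libraries 71 to 75, without overlap. Of 18 antioxidant genes 1 fell (2.29% of all genes did), GCLC, which starts glutathione synthesis (-0.27, adjusted p = 0.0266). Of 7 zinc genes 1 fell (2.29%), the zinc exporter SLC30A1 (-0.25, adjusted p = 0.0324). The Hippo pathway factor TEAD1 (-0.19, adjusted p = 0.033) was the 1 of 9 YAP genes that fell (2.29%), and FADS2, a fatty acid desaturase (0.24, adjusted p = 0.0239), the 1 of 13 fatty acid genes that rose (0.805% of all genes did). With libraries 73 and 74 left out CRY1 and FADS2 passed, at -0.22 (adjusted p = 0.0312) and 0.20 (adjusted p = 0.0339), and GCLC at -0.21 (adjusted p = 0.0759), SLC30A1 at -0.19 (adjusted p = 0.106) and TEAD1 at -0.13 (adjusted p = 0.135) did not.

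The splicing regulators SRSF5 (-0.26, adjusted p = 0.0123) and HNRNPD (-0.24, adjusted p = 0.015) were the 2 of 25 on their list that fell (2.29% of all genes did), and both passed without libraries 73 and 74. Among 8 polyadenylated histone genes HIST1H2AC (0.17, adjusted p = 0.0392) and HIST2H2BE (0.12, adjusted p = 0.043) rose (0.805% of all genes did) and the variant H2AFZ fell (-0.17, adjusted p = 0.0145, 2.29% of all genes fell), and these have relatives of nearly the same sequence. HIST1H2AC did not pass without libraries 73 and 74, at 0.17 (adjusted p = 0.0711), and the other two did. Of 17 hypoxia genes, VEGFA, the vascular growth factor, rose (0.15, adjusted p = 0.0362, 0.805% of all genes rose). The pyruvate dehydrogenase kinase PDK1 (-0.22, adjusted p = 0.0408) and BNIP3L, a mitophagy receptor (-0.15, adjusted p = 0.047), fell (2.29% of all genes did). None of these 3 hypoxia genes passed without libraries 73 and 74. By limma 0 genes passed among 20 p53 targets (5 at an unadjusted p under 0.05, 0 in edgeR and 1 in DESeq2), 19 glycolysis genes (1, 0 and 0), 21 oxidative phosphorylation genes (2, 0 and 0), 22 cholesterol synthesis genes (9, 0 and 4), 18 interferon genes (3, 0 and 1) and 30 cytosolic ribosomal protein genes (15, 0 and 5), of which 10 rose after GC correction (2.88% of genes tested did).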
